A study of Rattus norvegicus with 40 samples.

Results

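The substance P precursor gene Tac1, the calcitonin gene-related peptide (CGRP) genes Calca and Calcb, and the somatostatin gene Sst were followed in rat dorsal root ganglia (DRGs) after spinal nerve ligation (SNL). They encode the peptides by which peptidergic sensory neurons are recognized in an uninjured ganglion. The 4 genes were chosen by name and matched to the platform's gene symbols, which gave 6 probe sets among 31042 tested and 4 genes among 14217 named. Tac1, Calcb and Sst have 1 probe set each and Calca has 3. The probe set with the highest mean over all 40 arrays stood for Calca, and the others are given beside it.

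The samples were L4 and L5 DRGs of both sides from 5 SNL and 5 sham rats, taken 4 weeks after surgery, with 1 array per DRG and 5 arrays in each of 8 groups. All rats were male Sprague-Dawley rats, of an age the sources do not give. In SNL rats the left L6 transverse process was removed and the L5 spinal nerve was tied with silk beyond the ganglion. Sham rats had the same operation with the nerve left untied, so that both cohorts were operated on 1 side and the contralateral DRGs of both were not. The ligated nerve belongs to the ipsilateral L5 DRG of SNL rats, and the ipsilateral L4 DRG is its neighbour, whose nerve was not tied. The same rat gave all 4 of its DRGs. The values are signals of the MAS 5 algorithm on a linear scale, and differences are given as log2 fold changes of signal + 16, ipsilateral against contralateral, with the SE of the fit. A probe set was called higher or lower at an adjusted p under 0.05 (limma, Benjamini-Hochberg adjustment over all 31042 probe sets).

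Neuropeptides are made as precursors in the cell body, cut to size in dense-core vesicles and carried along the axon to both ends of the sensory neuron. Substance P and CGRP are released from small-diameter nociceptors, where they excite spinal neurons and widen blood vessels in the periphery, and somatostatin is an inhibitory peptide of another set of small sensory neurons. Axotomy of sensory neurons is known to lower these peptides and to raise galanin, neuropeptide Y and vasoactive intestinal peptide. Whole ganglia were measured, so fewer cells of a type and less RNA per cell cannot be told apart.

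The promoters of the members are shown because all 4 genes were called lower in the ligated L5 ganglion. In addition, Tac1, Calca and Sst are textbook targets of cyclic AMP signalling through CREB. Whether a shared regulator lay behind the changes was not tested. RefSeq sequences of build GRCr8 held 3 of the 4 members, and Calcb is named only. Each run holds 250 bases before and 50 bases from the start of the gene, 5′ to 3′ on the strand of the gene. The windows are chr4:36645333-36645632 on the plus strand for Tac1, chr1:178317480-178317779 on the minus strand for Calca and chr11:90461296-90461595 on the plus strand for Sst. Capitals mark the letters TGACG, searched on both strands, or the longer cyclic AMP response element TGACGTCA, which contains TGACG on each strand.
Tac1: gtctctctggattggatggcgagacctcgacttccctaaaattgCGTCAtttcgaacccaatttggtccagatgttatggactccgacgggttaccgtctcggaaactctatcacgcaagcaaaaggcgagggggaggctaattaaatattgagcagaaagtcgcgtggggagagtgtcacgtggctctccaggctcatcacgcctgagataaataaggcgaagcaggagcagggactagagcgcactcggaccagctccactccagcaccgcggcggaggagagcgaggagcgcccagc
Calca: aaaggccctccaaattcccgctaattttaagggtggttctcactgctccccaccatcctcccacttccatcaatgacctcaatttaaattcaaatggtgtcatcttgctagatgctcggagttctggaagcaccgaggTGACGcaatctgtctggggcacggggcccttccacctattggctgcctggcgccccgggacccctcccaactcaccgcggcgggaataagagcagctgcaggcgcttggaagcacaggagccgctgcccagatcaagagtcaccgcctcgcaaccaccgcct
Sst: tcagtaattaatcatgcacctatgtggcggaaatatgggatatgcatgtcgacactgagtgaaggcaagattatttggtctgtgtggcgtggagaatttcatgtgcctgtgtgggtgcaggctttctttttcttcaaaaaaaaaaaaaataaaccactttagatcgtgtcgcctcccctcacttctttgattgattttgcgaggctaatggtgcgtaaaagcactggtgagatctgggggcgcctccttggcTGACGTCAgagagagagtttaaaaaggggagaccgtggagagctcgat
The match in Tac1 is on the opposite strand and begins at base -206 counted from the start, and that in Calca begins at base -112. The Sst window holds the longer element from base 3 counted from the start. Each start is that of the RefSeq annotation, and whether transcription begins there in these ganglia was not examined. TGACG was found in 21.2% of 33469 promoters of this length and TGACGTCA in 1.83%, so the shorter letters are common. The arrays did not measure binding at these letters.

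On the ligated side of L5, all 4 neuropeptide genes fell to between 10.9% and 36.0% of the contralateral signal, and the second Calca probe set fell further, to 10.6%. All 4 genes were called lower, where 16.8% of all probe sets tested were called lower and 30.3% higher. The median log2 fold change of the 4 genes was -2.12, and that of all probe sets was 0.12. Of all 31042 probe sets, 4077 had every ipsilateral signal below every contralateral one, and 6445 had every one above.

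Tac1, the precursor of substance P and neurokinin A, had signals of 951, 971, 834, 933 and 913 in the contralateral L5 DRGs of rats 4, 8, 9, 18 and 48. In the ipsilateral DRGs of the same rats the signals were 226, 186, 189, 192 and 205. Every ligated ganglion lay below every contralateral one, with means of 199.8 ± 16.6 and 920.2 ± 53 (SD, n = 5), and the log2 fold change was -2.12 ± 0.06 (adjusted p = 2.13e-14).

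Calca encodes calcitonin and α-CGRP, which are made from 1 gene by alternative splicing. Its brightest probe set, 1370775_a_at, read 3182, 3344, 2542, 2873 and 2705 in the contralateral L5 DRGs, in the same order of rats, and 972, 1022, 1169, 1154 and 952 in the ipsilateral ones. The sides did not overlap, and the log2 fold change was -1.46 ± 0.08 (adjusted p = 9.56e-11). The second probe set, 1369116_a_at, fell from 1443, 1357, 1257, 1349.5 and 1299 to 176, 112, 132, 132 and 159, again with no overlap. Its log2 fold change was -3.11 ± 0.09 (adjusted p = 1.48e-14). The letter a in both names means that the probes match several transcripts of the gene, and which exons each set detects was not determined here. The third set, 1369117_at, had group means of 0.668 to 5.56, below nearly all other probe sets, and was called in none of the 4 comparisons of sides.

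Calcb, which encodes β-CGRP, read 1305, 1166, 1236, 1161 and 1243 in the contralateral and 282, 286, 236, 256 and 276 in the ipsilateral L5 DRGs. The ligated side kept 21.9% of the signal, close to the 21.7% of Tac1, and the log2 fold change was -2.13 ± 0.06 (adjusted p = 1.37e-14). Sst, the somatostatin precursor, read 343, 393, 395, 429 and 420.2 in the contralateral and 51.9, 38.5, 46, 40.2 and 39.95 in the ipsilateral L5 DRGs. Its log2 fold change of -2.80 ± 0.08 (adjusted p = 1.37e-14) left 10.9% of the signal. The ligated signals are not far above the added 16, so this fold change is an understatement: with 1 in place of 16 it was -3.17.

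**Figure D1:**
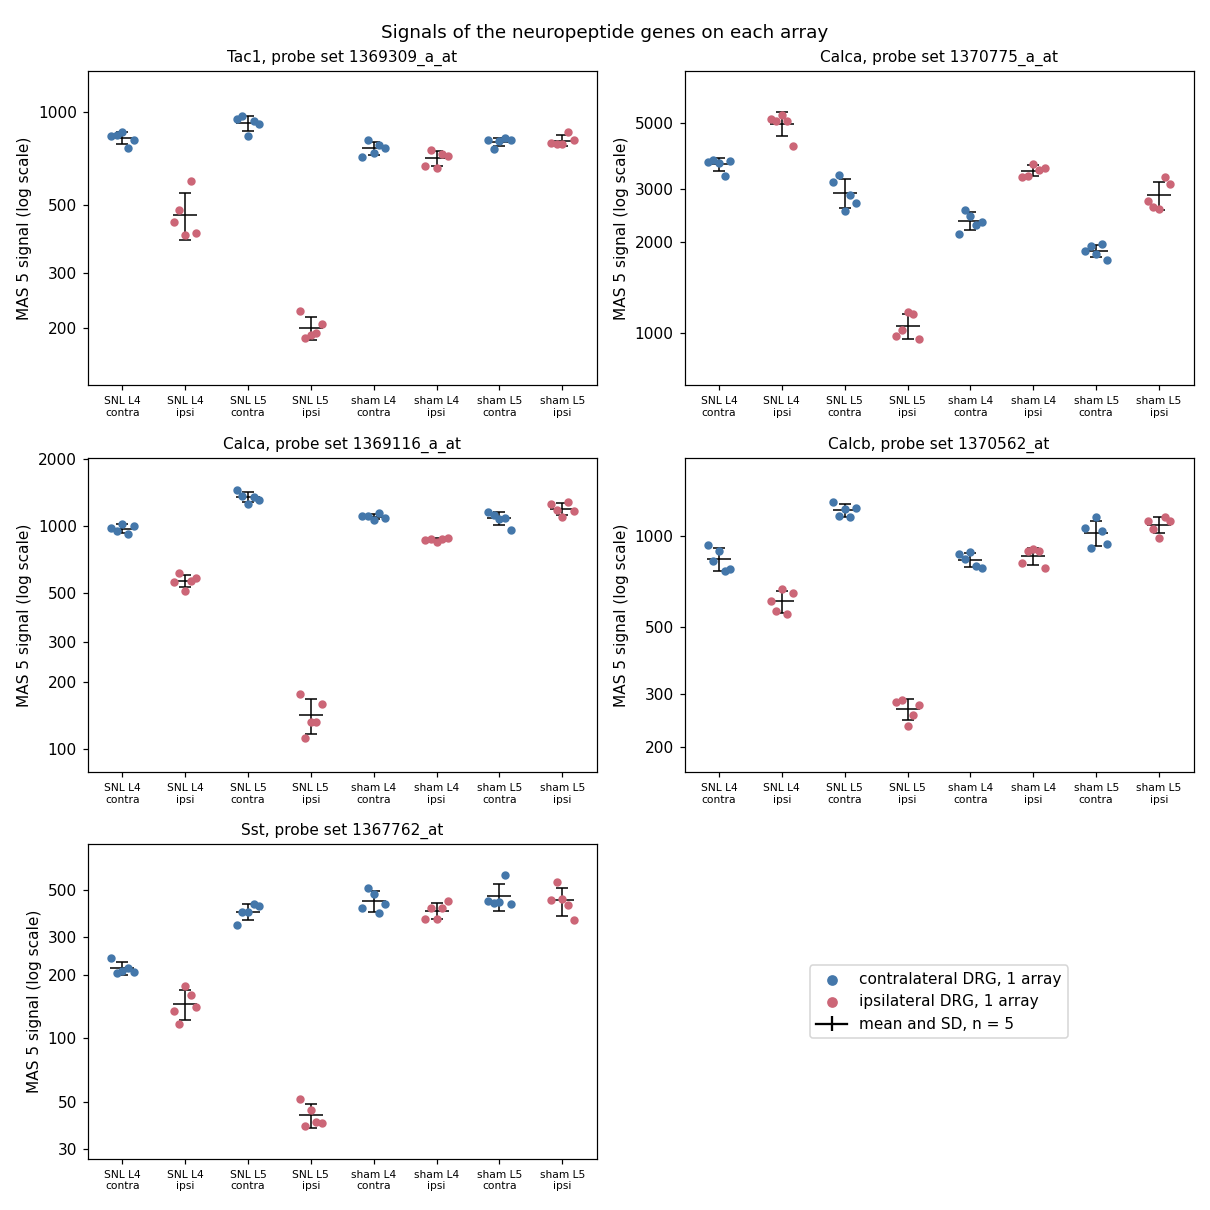
MAS 5 signal (log axis) of each array for Tac1, the brighter Calca probe sets, Calcb and Sst, by cohort, segment and side, each point being 1 array and each bar a mean with its SD (n = 5). The ligated L5 DRGs lie lowest in every panel, and in the SNL L4 DRGs the Calca set 1370775_a_at lies higher on the ipsilateral side while the other 4 sets lie lower.

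Pan-neuronal markers went both ways in the ligated ganglion: of 8 measured, 5 were called lower and 2 higher, and with equal array medians 6 and 0. The mean log2 level of these genes was lower ipsilaterally by 0.45 (mean 9.20 against 9.65, no overlap between sides). The two-sided exact permutation test, which did not pair the sides of a rat, gave p = 0.00794, the smallest that 5 against 5 arrays allow. The summed signal of these genes was 9824 to 11123 on the ligated side and 9893 to 12155 on the other. With the pan-neuronal mean subtracted from every array, the log2 fold changes were -1.67 for Tac1, -1.01 and -2.66 for the Calca sets, -1.68 for Calcb and -2.35 for Sst, all called. Macrophage markers (3 of 4 higher, summed signal 468 to 537 against 140 to 169) and fibroblast markers (4 of 4 higher, 7123 to 8364 against 2260 to 2503) rose in the same ganglia. Blood cell markers were 4 of 4 lower (3209 to 3594 against 3878 to 5468), and Schwann cell markers were 4 of 4 higher with overlapping sums (6979 to 9227 against 5432 to 7283), of which 1 was called with equal medians. Their part in the fall of the neuropeptides was not tested.

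In the L4 DRG beside the ligation, Tac1, Calcb and Sst were lower than on the contralateral side, by less than in L5, and the Calca probe sets moved in opposite directions. By the brightest probe sets 3 of the 4 genes were called lower and Calca was called higher, where 9.01% of all probe sets were called lower and 10.1% higher. With the second Calca set, all 4 were lower. The median log2 fold change of the 4 genes was -0.49, against 0.07 over all probe sets. Sides without overlap were seen in 2291 of all 31042 probe sets with the ipsilateral side lower, and in 2367 with it higher.

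Tac1 signals were 837, 839, 863, 764 and 810.0 in the contralateral L4 DRGs of rats 4, 8, 9, 18 and 48, and 439.5, 482, 399, 596 and 405 in the ipsilateral ones. The sides did not overlap, although rat 18 kept clearly more than the others, and the log2 fold change was -0.82 ± 0.09 (adjusted p = 3.37e-06). Calcb read 937, 832, 892, 770.0 and 779 contralaterally and 609.6, 567, 669, 552 and 649.8 ipsilaterally. It was lower in 5 of 5 rats, and the log2 fold change was -0.46 ± 0.07 (adjusted p = 0.00014). Sst read 239.8, 202, 208, 214 and 205 contralaterally and 134, 117, 176, 159 and 139.9 ipsilaterally. The sides did not overlap for this inhibitory peptide either, and the log2 fold change was -0.52 ± 0.10 (adjusted p = 0.000909).

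For Calca, the brightest probe set read 3709, 3750.0, 3687, 3335 and 3721 in the contralateral and 5169, 5081, 5330.1, 5086 and 4182 in the ipsilateral L4 DRGs, a rise of 0.44 ± 0.06 on the log2 scale (adjusted p = 8.68e-05). It shrank to 0.16 after quantile normalization and was still called. The second set read 981, 943, 1019, 915 and 996 contralaterally and 562, 611, 509.9, 562 and 584 ipsilaterally, a fold change of -0.76 ± 0.06 (adjusted p = 7.82e-08). Neither set overlapped between sides, so the direction of Calca in SNL L4 depends on the probe set that stands for it.

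The ratio between these Calca probe sets differed between sides in all 4 comparisons. On the log2 scale, 1370775_a_at exceeded 1369116_a_at by 3.10 ipsilaterally and 1.89 contralaterally in SNL L4, by 2.77 and 1.11 in SNL L5, by 1.98 and 1.09 in sham L4, and by 1.25 and 0.78 in sham L5. The ratio was higher on the ipsilateral side by 1.21, 1.66, 0.89 and 0.47, with no overlap (exact permutation test, two-sided, p = 0.00794 in each of the 4). A measure of RNA integrity, the GAPDH signal at the 3′ probe set over that at the 5′ probe set, in log2, was also higher ipsilaterally, by 0.95 in SNL L4, 0.64 in SNL L5 and 0.43 in sham L4 (p = 0.00794 each, exact permutation test). In sham L5 it was higher by 0.09 with overlapping sides (p = 0.175, exact permutation test). The same ratio of actin was higher ipsilaterally by 1.14 in SNL L5 (p = 0.00794, exact permutation test) and by 0.77 in SNL L4 with overlapping sides (p = 0.0159, exact permutation test). In sham rats its sides overlapped, at -0.21 in L4 and 0.22 in L5 (p = 0.159 and 0.0556, exact permutation test). The part of RNA integrity in the Calca ratio was not tested. Nor was its part in the differences of sides of Tac1, Calcb and Sst, or in how these differed between cohorts.

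**Figure D2:**
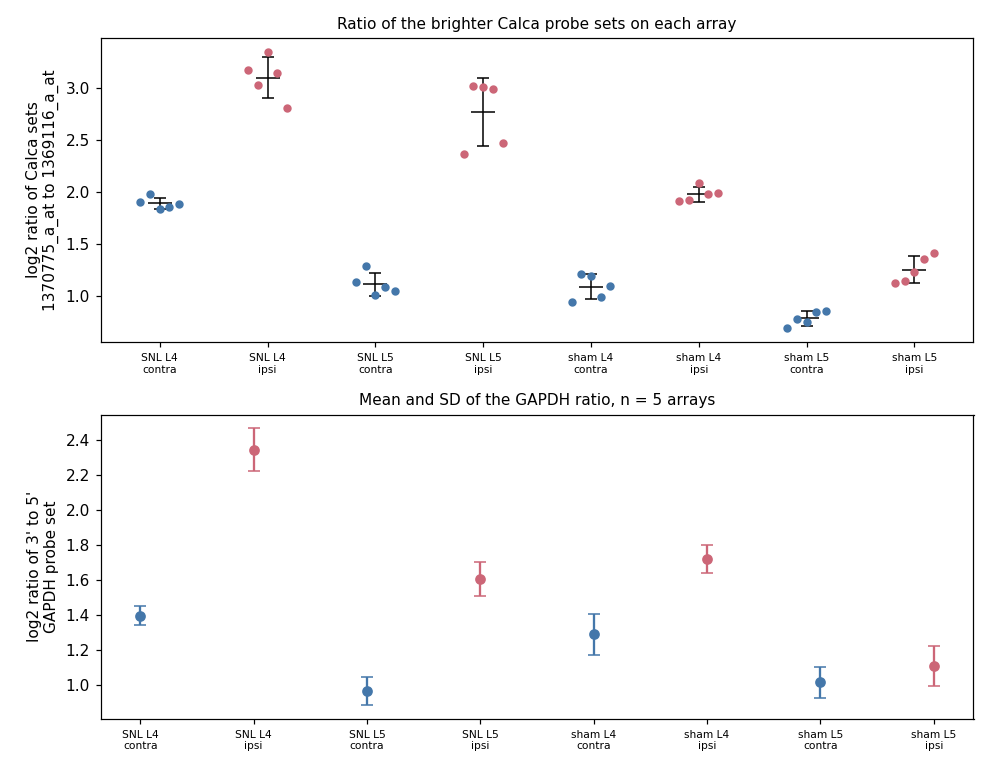
Top, log2 ratio of the signals + 16 of the Calca probe sets 1370775_a_at and 1369116_a_at on each array (points) with mean and SD (n = 5), and bottom, the mean and SD (n = 5) of the GAPDH ratio, 3′ over 5′ probe set in log2, by group. The Calca ratio lies higher on the ipsilateral side in each comparison, from 0.47 in sham L5 to 1.66 in SNL L5, and the GAPDH ratio is highest in the ipsilateral SNL L4 DRGs.

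Markers of other cell types differed in the same L4 DRGs. Fibroblast markers were higher in 3 of 4 genes, with a summed signal of 5343 to 5568 ipsilaterally and 3110 to 3507 contralaterally. Of 4 blood cell markers 3 were lower, with a summed signal of 918 to 1156 ipsilaterally and 2785 to 3164 contralaterally. The pan-neuronal mean was lower by 0.08 (sides overlapping, p = 0.0556, exact permutation test). Their part in the L4 values was not tested. With that mean subtracted, Tac1, Calcb and Sst remained called at -0.73, -0.37 and -0.44.

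In sham rats, the calls rested on how the arrays were scaled. As deposited, Calca was called higher and the other 3 genes were not called in each sham comparison, where 17.3% and 31.1% of all probe sets were called higher at L4 and L5, and 9.85% and 19.3% lower. At L5, 1 of 4 genes is close to the share of all probe sets called higher. Tac1 read 714 to 811 contralaterally and 660.3 to 754 ipsilaterally at L4, a log2 difference of -0.11 ± 0.05 (adjusted p = 0.159). At L5 it read 758 to 821 and 787 to 861, a difference of 0.01 ± 0.04 (adjusted p = 0.851), with overlapping sides at both segments. Calcb also overlapped at both, at 783 to 885 against 783 to 909.7 in L4 (0.04 ± 0.06, adjusted p = 0.653) and 915 to 1158 against 991 to 1158 in L5 (0.09 ± 0.07, adjusted p = 0.267). Sst overlapped as well, at 391 to 509.7 against 364 to 445 in L4 (-0.15 ± 0.08, adjusted p = 0.17) and 432 to 587 against 360.2 to 548 in L5 (-0.06 ± 0.10, adjusted p = 0.628).

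The brightest Calca set rose in the sham rats from 2130.5, 2561, 2442, 2288 and 2335 in rats 1, 14, 17, 22 and 23 to 3308, 3331, 3655, 3472 and 3546 at L4, and from 1871, 1940.0, 1822, 1966 and 1750.3 to 2745, 2613, 2588, 3292 and 3119 at L5. The log2 fold changes were 0.56 ± 0.05 and 0.61 ± 0.07 (adjusted p = 2.73e-06 and 5.18e-06), and they turned to -0.0358 and -0.11 after quantile normalization. The second Calca set was lower at L4, at 849 to 881 against 1058 to 1142 (-0.33 ± 0.04, adjusted p = 5.20e-05), and at L5 its difference was 0.14 ± 0.06 (adjusted p = 0.0557). Scaling all arrays to equal medians brought all 4 genes past the threshold at both segments. Tac1, Calcb and Sst then read lower ipsilaterally, by 0.33, 0.19 and 0.37 at L4 and by 0.30, 0.22 and 0.37 at L5, while Calca stayed higher by 0.33 and 0.30. Under this scaling 8547 of all 31042 probe sets were called lower and 3148 higher at L4, and 12888 and 6074 at L5. The pan-neuronal mean was higher ipsilaterally in sham rats by 0.26 at L4 and 0.33 at L5 (p = 0.00794 each, exact permutation test), and the median of all probe sets moved from 0.06 to -0.07 at L4 and to -0.11 at L5 under equal medians.

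**Figure D3:**
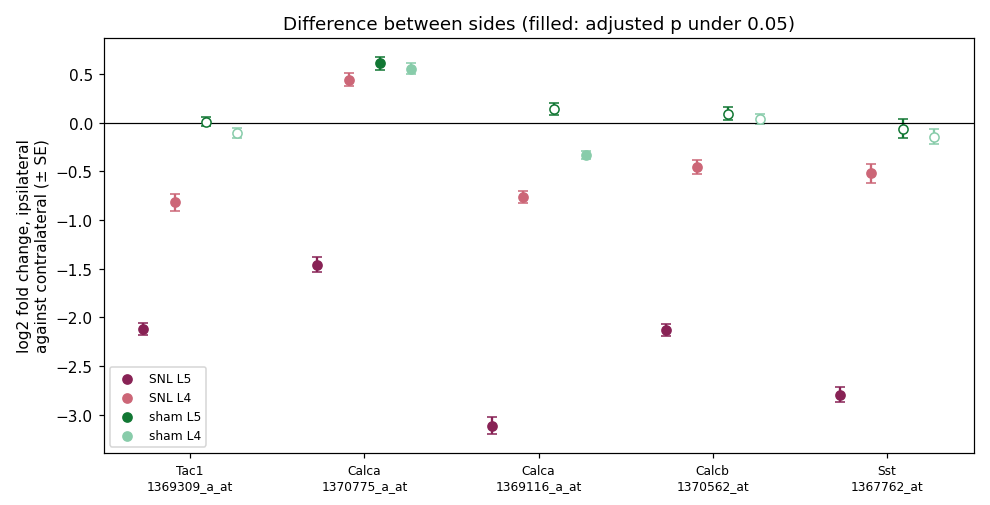
Log2 fold change of signal + 16, ipsilateral against contralateral, for each probe set in the 4 comparisons, with the SE as bars and filled points where the adjusted p was under 0.05. The ligated L5 values lie between -3.11 and -1.46, the SNL L4 values between -0.82 and 0.44, and the sham values between -0.33 and 0.61.

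The difference of sides was then compared between cohorts and segments, in fits of 20 arrays. At L5 the log2 fold change in SNL rats was below that in sham rats, with a difference of -2.13 for Tac1, -2.07 for Calca, -2.22 for Calcb and -2.74 for Sst. All 4 were called lower, where 22.3% of all probe sets were, and the second Calca set differed by -3.26. Within SNL rats the L5 value was below the L4 value, with a difference of -1.30 for Tac1, -1.90 for Calca (-2.35 for the second set), -1.68 for Calcb and -2.28 for Sst. All 4 were called lower, where 8.08% of all probe sets were. In both tests the adjusted p of each set was at most 1.12e-09.

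At L4 the difference between cohorts was smaller, and 3 of the 4 genes were called lower, where 8.28% of all probe sets were. It was -0.71 ± 0.11 for Tac1 (adjusted p = 3.31e-05) and -0.49 ± 0.09 for Calcb (adjusted p = 0.000376). For Sst it was -0.38 ± 0.12 (adjusted p = 0.0439), a call lost on leaving out any of 13 of the 20 arrays. The Calca sets gave -0.11 ± 0.08 (1370775_a_at, adjusted p = 0.439) and -0.43 ± 0.07 (1369116_a_at, adjusted p = 6.86e-05), the latter -0.0666 and not called after quantile normalization (adjusted p = 0.623). With the pan-neuronal mean subtracted, Tac1 remained called at -0.37, and the differences of Calcb, Sst and the second Calca set were -0.15, -0.0346 and -0.0895 and not called, while the brightest Calca set was called at 0.23. The rise of Calca by its brightest set in SNL L4 was thus not shown to differ from that in sham L4 as deposited.

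Across the 8 groups, the ligated L5 DRGs had the lowest mean of each gene, and they did not overlap the group next above for Tac1, either Calca set, Calcb or Sst. The ipsilateral SNL L4 DRGs came next for Tac1 (464), Calcb (609.5), Sst (145) and the second Calca set (566), and did not overlap the group above either. The other 6 groups of Tac1 ran from 707 to 920, each overlapping its neighbour. For Calcb they ran from 836 to 1222, where the sham L5 groups overlapped each other below the contralateral SNL L5 group. The 3 L4 groups overlapped one another at lower means, and contralateral SNL L4 (up to 937) also overlapped contralateral sham L5 (from 915). By its brightest set, Calca was highest in the ipsilateral SNL L4 DRGs (4970 in the mean), above the contralateral SNL L4 group without overlap. The median signal of the arrays was highest in the same groups, at 54.4 and 49.4 in the mean, against 29.0 to 43.1 in the others. Except for the ligated L5 DRGs, the groups of this Calca set stood in the order of their array medians, whose part was not tested. Contralateral L4 groups differed between the cohorts for Sst, which read 202 to 240 in SNL rats and 391 to 510 in sham rats. The log2 difference for Sst was -0.999 (exact permutation test, two-sided, p = 0.00794, adjusted over 10 such tests 0.00992), and it was -1.60 with equal array medians. The Calca sets differed without overlap too, by 0.63 (1370775_a_at, -0.00742 with equal medians) and -0.17 (1369116_a_at, -0.80 with equal medians), while Tac1 and Calcb overlapped (0.11 and 0.00706, and -0.52 and -0.62 with equal medians). At L5 none of the 5 probe sets overlapped between cohorts: Tac1, Calcb and the Calca sets were higher in SNL rats, by 0.20, 0.25, 0.64 and 0.31, and Sst was lower (-0.22). How many of all probe sets had no overlap between the contralateral groups of the cohorts was not counted. Nor was it counted how many had a lowest or next lowest of the 8 groups clear of the group above. With equal medians Tac1, Calcb and 1369116_a_at turned, to -0.15, -0.0914 and -0.0360. This comparison was added after the values had been seen. By the array names in the sample titles, the SNL L5 arrays belong to another numbered series than the other 30, and what the series stands for is not stated. Where their signal levels are set against sham or L4 groups, the series cannot be told apart from the cohort or the segment. The order of the 8 groups above shares this limit. The tests between cohorts at L5 and between segments of SNL rats also span both series. Only a shift common to both sides drops out of them.

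The receptors of these peptides were measured for 14 of 14 listed genes, most of them at low signals. In SNL L5, 6 were called higher and 8 were not called, where 30.3% of all probe sets were called higher, with a median of 0.27 against 0.12 over all probe sets. Of these 6, 4 were called after quantile normalization and 3 with equal medians. The methods' t-test called 4 of the 14. The largest rise was that of Ramp1, the accessory protein that makes the calcitonin receptor-like receptor a CGRP receptor, at 19.3 ± 1.36 contralaterally and 68.9 ± 4.19 ipsilaterally (SD, n = 5), which is 1.27 on the log2 scale. Calcrl itself read 14.1 and 20.4 and was not called (0.25, adjusted p = 0.160). Ramp1 also exceeded its sham L5 value, by 1.56 (adjusted p = 3.07e-09), and by 1.74 and 1.63 after quantile normalization and with equal medians. Of the others, Ramp2 exceeded its sham L5 value by 0.59, and Tacr3 (-0.43) and Tacr2 (-0.38) lay below theirs, calls that quantile normalization ended for the last pair. The somatostatin receptors Sstr3 (0.75) and Sstr2 (0.52) and the neurokinin B receptor Tacr3 (0.41) were the next largest, and Tacr3 was no longer called under either scaling (0.25 in each). Tacr1, the substance P receptor, was not called (0.21, adjusted p = 0.179). In SNL L4, 1 receptor was higher, Sstr2 at 0.78 (adjusted p = 0.00015, from 75.5 to 140.5) by its brighter probe set and not by its other, and 1 was lower, Ramp3 at -0.80 (from 18.2 to 3.38). Of all probe sets 10.1% were called higher there and 9.01% lower. By limma 0 of 14 differed between SNL and sham rats at L4, 4 of them at an unadjusted p under 0.05. In sham rats 5 were higher and 1 lower at L4, where 17.3% of all probe sets were higher, and 5 higher and 2 lower at L5, where 31.1% were higher, and with equal medians 3 and 2 at L4 and 4 and 4 at L5.

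Of 6 other ligands of the same families 3 were measured. In SNL L5 adrenomedullin (Adm), a vasodilator, rose from 37.6 to 105 (1.18), and amylin (Iapp), a CGRP-related peptide of sensory neurons and the pancreas, fell from 55.7 to 15.5 (-1.19). Tac3, the neurokinin B precursor, read -0.22 and was not called, and in SNL L4 limma called 0 of the 3 (0 at an unadjusted p under 0.05 and 0 by the methods' t-test).

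Genes of precursor processing and dense-core vesicles were called in both directions in the ligated ganglion. Of 14 measured among 15 listed, 8 were lower and 4 higher in SNL L5, where 16.8% of all probe sets were lower and 30.3% higher, with a median of -0.55, and 11 of these 12 calls were kept after quantile normalization and 11 with equal medians. The granins Scg2 and Chgb, cargo proteins of dense-core vesicles, fell from 357 to 43.1 (-2.68) and from 437 to 175 (-1.25), and the vesicle priming factor Cadps2 fell from 325 to 91.9 (-1.67). Vgf, a granin-like precursor that nerve growth factor induces, rose from 77.3 to 405 (2.19). In SNL L4, 4 were higher and 2 lower, where 10.1% of all probe sets were higher and 9.01% lower. Vgf (0.93), Pam (0.51), which amidates substance P and CGRP, and Ptprn (0.35), a vesicle membrane protein, were higher. Scg5 (-0.34), a chaperone of a precursor convertase, was lower. The Ptprn value was 0.21 and not called with equal array medians, under which the list had 2 higher and 5 lower, and neither of the other Pam probe sets was called. At L5, Scg2 differed between SNL and sham rats by -2.47 and Vgf by 2.96. At L4 the sets called by the same test were 2 higher and 4 lower, where 1777 of all 31042 probe sets were higher and 2570 lower. That balance turned to 4 higher and 1 lower after quantile normalization and to 4 and 3 with equal medians. In sham rats 2 were higher and 1 lower at L4, where 17.3% of all probe sets were higher and 9.85% lower. At L5 3 were higher and 6 lower, where 31.1% and 19.3% were. With equal medians these counts were 1 and 10 at L4 and 0 and 10 at L5. Of all 31042 probe sets, 3148 were then higher and 8547 lower at L4, and 6074 and 12888 at L5.

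Of 4 peptidases that degrade the peptides, Mme (neprilysin, which cleaves substance P) and Anpep were higher in SNL L5, by 0.93 and 0.76, and Ece1 was lower by 0.25. There 30.3% of all probe sets were higher and 16.8% lower. In SNL L4 limma called 0 of the 4 (again 0 at an unadjusted p under 0.05 and 0 by the methods' t-test).

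The injury-induced peptides were higher in the ligated ganglion, where the members were lower. In SNL L5, Gal rose from 84.0 to 1665 (4.08), Npy from 32.4 to 2527 (5.72) and Vip from 5.00 to 1222 (5.88). In SNL L4 the same genes were higher by 0.65, 1.23 and 1.09. Npy and Vip were also higher in sham rats, by 1.71 and 1.09 at L4 and by 1.92 and 2.26 at L5, and Gal was called at L5 (0.72) but not at L4 (-0.03). The SNL value exceeded the sham value for all 3 at L5, by 3.37 to 3.79, and at L4 it did for Gal (0.67, adjusted p = 0.0243) and was lower for Npy (-0.48, adjusted p = 0.0196), calls that quantile normalization ended (adjusted p = 0.0596 and 0.776).

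**Figure D4:**
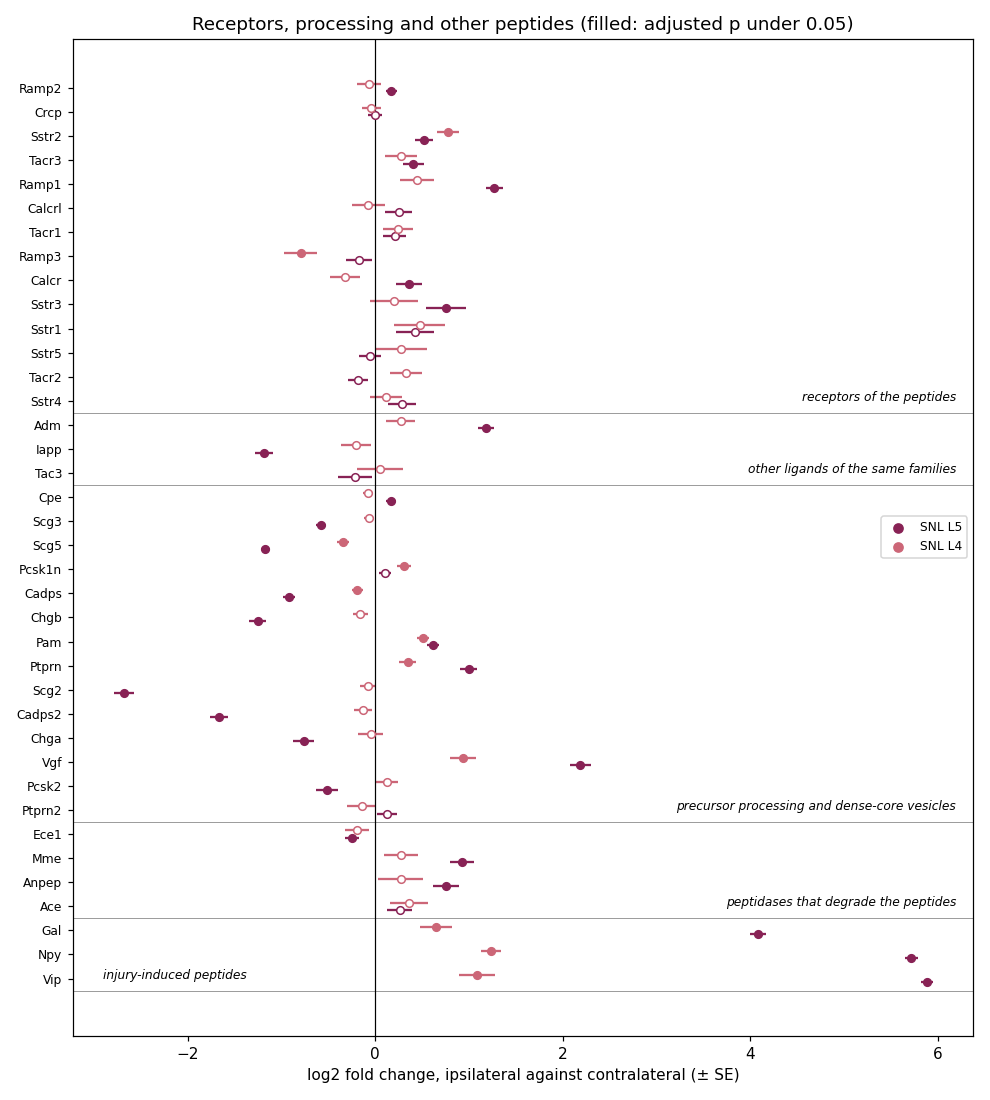
Log2 fold change of signal + 16, ipsilateral against contralateral (horizontal axis, SE as bars), of the receptors, other ligands, processing and vesicle genes, peptidases and injury-induced peptides in SNL L5 (dark) and SNL L4 (light), filled where the adjusted p was under 0.05. In SNL L5 Vip (5.88), Npy (5.72), Gal (4.08) and Vgf (2.19) lie farthest to the right and Scg2 (-2.68) farthest to the left.

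Other markers of the neurons that carry these peptides went both ways in the ligated ganglion, where 16.8% of all probe sets were called lower and 30.3% higher. Of 4 measured peptidergic markers, 2 fell and 2 rose: the capsaicin receptor gene Trpv1 fell in SNL L5 from 402 to 92.1 (-1.95) and Kit fell by 0.41, whereas Adcyap1, which encodes the peptide PACAP, rose from 197 to 543 (1.39) and the artemin receptor gene Gfra3 from 131 to 353 (1.33). In SNL L4 Adcyap1 was higher by 0.49 and the other 3 were not called, where 10.1% of all probe sets were called higher and 9.01% lower. Of 4 measured non-peptidergic markers all were lower in SNL L5, where 16.8% of all probe sets were lower. The largest fall was that of the sodium channel gene Scn11a at -3.05, from 1118 to 122. In SNL L4 the purinergic receptor gene P2rx3 fell from 1097 to 548 (-0.98), Ret fell by 0.50 and Gfra2 by 0.31, the last not called after quantile normalization (-0.20) or without 1 of the arrays. Markers of the somatostatin class of itch neurons were dim, with summed signals of 67.1 to 94.3 ipsilaterally and 48.9 to 77.5 contralaterally in SNL L5. Of those 4 markers 1, Nts, was called higher (0.63), and 3 were not called, where 30.3% of all probe sets were called higher. In sham L5 3 of the 4 were called higher, where 31.1% of all probe sets were, and 1 with equal medians. Between SNL and sham rats at L5 1 was higher and 2 lower, and with equal medians 1 and 0. Among injured neuron markers, Atf3 rose by 3.69 in SNL L5, and in SNL L4 it rose from 69.4 to 162.

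Genes were ranked by Pearson's r of log2 signals with each member over all 40 arrays, each gene by its brightest probe set. The set 1369116_a_at was thus not ranked, although its r was 0.983 with Tac1 and 0.972 with Calcb, above every ranked gene. The ranked gene most like Tac1 was Hapln1 (0.96), followed by Fabp3 (0.96), C2h3orf80 (0.96), Kcnip4 (0.96) and Htr3b (0.96), among 8936 genes above the median signal. For Calcb they were Kcnip4 (0.97), Kcnab1 (0.96), Isl2 (0.96), Spock3 (0.96) and Cacna2d3 (0.96), and for Sst Fgf12 (0.98), Gna14 (0.98), LOC100909866 (0.97), Smim18 (0.97) and Nrsn1 (0.97). The Calca sets again parted: 1369116_a_at was most like Tac1 (0.98), then Fabp3, C2h3orf80, Ano3 and Htr3b (0.97 each), and 1370775_a_at was most like Nap1l5 (0.94), Nefh (0.93), Ldhb (0.93), Tspan7 (0.92) and Kcnq5 (0.91). Between members, r was 0.91 to 0.98 among Tac1, 1369116_a_at, Calcb and Sst, and 0.38 to 0.56 between each of these and 1370775_a_at. The arrays share group differences and rats and span both array series, and the values are a description. Within groups, as deviations from the group means, r between members ran from -0.12 to 0.46, with the highest for Tac1 and 1369116_a_at.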

How the data were processed

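RNA of individual DRGs was labelled and hybridized to Affymetrix rat genome arrays. Signals were made by the MAS 5 algorithm, of a version not given in the sources used here. The intensity values deposited by the authors are linear. All 40 columns were used, groups and rat numbers came from the sample labels, and 57 control probe sets were left out. Gene symbols came from the platform annotation: of 31042 probe sets, 20826 have 1 symbol, 436 several and 9780 none.

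Signals were taken as log2(signal + 16), on which the fold change of a dim gene is understated. Each comparison of sides was fitted to its own 10 arrays, and each difference of comparisons to 20, by lmFit and eBayes with an intensity trend (limma 3.58.1, run under R 4.3.3). The fits were tested on simulated data. Single measures used exact permutation tests of scipy 1.17.1, which shuffled all arrays of a comparison and did not pair the sides of a rat. Of several probe sets of a gene, that with the highest mean stood for it. Named were all members with all their probe sets, of each other list up to 4 called genes with the largest absolute fold change in a comparison, and for each member the 5 most correlated genes. Further genes of a list named with values (Calcrl, Tacr1, Tac3) were chosen after their values were seen. The members and lists were chosen with earlier results of these data known. Array number limits the precision. Separate DRGs of 5 rats were the replicates.

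The rat number pairs the samples, since all 4 DRGs of a number came from 1 rat. After removal of group means, the sides of 1 rat correlated at -0.14 to 0.10. The study's methods name a t-test and do not state pairing for mRNA, so the rat was left out of the fit and entered as an alternative. The other alternatives were offsets of 1 and 64, quantile normalization, equal array medians, bright probe sets alone, other probe sets, the methods' t-test, no intensity trend, and leaving out each array. Scaling to pan-neuronal markers was added after seeing the data.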

Additional observations from a re-analysis of the deposited data

Results flagged for a closer look

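The highest or lowest array stood far from the other 4 in 4 of 40 groups examined, and chance alone gives about 1 in 20. The lowest Tac1 signal of contralateral sham L5 was 758 in rat 14. The lowest signal of the brightest Calca set in contralateral SNL L4 was 3335 in rat 18, and in ipsilateral SNL L4 it was 4182 in rat 48. The highest Sst signal of contralateral sham L5 was 587 in rat 22. Leaving out any of these arrays changed no call of a comparison of sides.

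The difference of sides differed between cohorts or segments by the test of the difference itself in 14 cases. Between SNL and sham rats at L5 it differed by -2.13 for Tac1, -2.07 for Calca by 1370775_a_at, -3.26 by 1369116_a_at, -2.22 for Calcb and -2.74 for Sst. Between SNL and sham rats at L4 it differed by -0.71 for Tac1, -0.43 for Calca by 1369116_a_at, -0.49 for Calcb and -0.38 for Sst. Between L5 and L4 of SNL rats it differed by -1.30 for Tac1, -1.90 and -2.35 for the Calca sets, -1.68 for Calcb and -2.28 for Sst.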

How the results depend on the processing

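In SNL L4 and SNL L5, all member calls kept their direction and their side of the threshold under each alternative run and on leaving out each array, except that with the second probe set Calca in SNL L4 turned from 0.44 to -0.76, which made 4 genes lower and 0 higher there. The cause of the changes below was not tested. Under quantile normalization the sham L5 values became -0.13 for Tac1, -0.11 for Calca (1370775_a_at), -0.16 for 1369116_a_at and -0.18 for Calcb, all called, with 3 members called in place of 1. In sham L4, 1370775_a_at became -0.0358 and was not called, which left 0 members called there by limma. The SNL to sham difference of 1369116_a_at at L4 became -0.0666 and was not called. With equal array medians, sham L4 gave -0.33 for Tac1, -0.19 for Calcb and -0.37 for Sst, and sham L5 gave -0.30, -0.22 and -0.37, with -0.17 for 1369116_a_at, so that 4 members were called in each. The SNL to sham difference of Sst at L4 became -0.26 and was not called. Scaling to pan-neuronal markers gave -0.36, -0.22 and -0.40 in sham L4 and -0.32, -0.24 and -0.40 in sham L5 for the same genes, with -0.19 for 1369116_a_at and 4 members called in each. It turned the SNL to sham difference at L4 to 0.23 for 1370775_a_at and left those of 1369116_a_at (-0.0895), Calcb (-0.15) and Sst (-0.0346) without a call. That of Sst also lost its call with an offset of 64 (-0.28), without the intensity trend (-0.38, adjusted p = 0.0907) and on leaving out any of 13 arrays (range -0.44 to -0.31), which were contralateral SNL L4 of rats 4, 9, 18 and 48, ipsilateral SNL L4 of rats 4, 8 and 48, contralateral sham L4 of rats 1, 22 and 23, and ipsilateral sham L4 of rats 14, 22 and 23. In sham L5, 1369116_a_at was called among bright probe sets alone (0.14) and without ipsilateral rat 17 or contralateral rat 1 (range 0.10 to 0.17).

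With the rat as a replicate block no member call changed. In SNL L4, Tac1 kept its fold change of -0.82, with an adjusted p of 1.27e-05 in limma. The methods' t-test with Benjamini-Hochberg adjustment made the same member calls. Among 8 listed genes with several probe sets, 3, 4, 2 and 3 were called in SNL L4, SNL L5, sham L4 and sham L5 by the brightest set and 0, 1, 1 and 5 by the next. Over all probe sets, calls higher and lower were 3140 and 2798 in SNL L4, 9408 and 5230 in SNL L5, 5355 and 3058 in sham L4, and 9640 and 5978 in sham L5. They were 1585 and 4179, 5220 and 7584, 3148 and 8547, and 6074 and 12888 with equal medians, 2544 and 2987, 6618 and 6158, 2803 and 2806, and 5267 and 6722 under quantile normalization, and 4833 and 1975, 25072 and 1654, 1586 and 11103, and 3014 and 16910 with neuronal scaling. The signals of most receptors lie near the background of the arrays, which limits their fold changes.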
